A study of Mus musculus with 2 samples.

Results

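Myelin genes along the oligodendrocyte lineage were followed in single cells of the mouse basolateral amygdala. The 9 genes Mbp, Cnp, Cldn11, Mag, Mobp, Mog, Opalin, Mal and Ermn were taken by symbol and not by their values, out of 25120 genes with a column in either deposited table. The FGF21 group was adult C57BL/6 mice given the liver hormone FGF21 at a dose of 1 mg/kg, 1 dose per day for 3 days. The vehicle group was adult C57BL/6 mice given vehicle on that schedule. Tissue of 3 mice was pooled per treatment and sorted for living cells with the red fluorescent protein tdTomato, in a series on cells that express KLB (beta-klotho), the co-receptor of FGF21. The labels used here do not say what drives tdTomato. Each pool gave 1 library. The spread between animals is therefore not known, no test was made, and every interval is a 95% interval for counting error only. Treatment, pool and library cannot be told apart.

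Oligodendrocytes wrap axons in myelin, a stack of membrane that speeds the nerve impulse. In the adult brain they arise from precursors that carry the growth factor receptor Pdgfra. These pass through a short differentiating stage marked by Enpp6 and Bmp4 and then make large amounts of myelin protein. Mbp (myelin basic protein) holds the cytoplasmic faces of compact myelin together, and Mobp is a small basic protein of the same compartment. Cnp is an enzyme of the cytoplasmic channels of the sheath, Cldn11 forms the tight junctions between its turns, and Mag is an adhesion protein of the membrane that faces the axon. Mog lies on the outer surface of the sheath, Opalin is a membrane glycoprotein of its loops, Mal is a membrane protein of lipid rafts, and Ermn (ermin) is a cytoskeletal protein of myelinating cells.

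The genes are spread over the genome (GRCm38, GENCODE vM21). Cnp lies at chr11:100574904-100591729 on the plus strand, Cldn11 at chr3:31149920-31164324 on the plus strand, Mag at chr7:30899176-30914873 on the minus strand and Mobp at chr9:120149707-120181484 on the plus strand. Mog lies at chr17:37010743-37023398, Opalin at chr19:41061710-41077113, Mal at chr2:127633226-127656695 and Ermn at chr2:58045113-58052864, all on the minus strand. Cnp overlaps Dnajc7 and Ermn overlaps Galnt5, each on the other strand, and Mobp overlaps Gm38642 on the same strand. The files do not state whether strand was used in counting, so the values of Cnp, Ermn and Mobp could hold some reads of those neighbours.

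Promoter windows from 250 bases before to 50 bases after the gene start were available from RefSeq (GRCm38.p6) for 8 of the 9 genes. They are shown because the onset of these genes differed over the stages. MYRF, a transcription factor that switches on myelin genes in differentiating cells, was searched as CTGGCAC or CTGGTAC on both strands. These letters were found in 4 of the 8 genes with a window, Mag, Cnp, Mog and Opalin, and in 8.10% of all 27025 genes with a window (7.10% of 32851 windows). SOX10, a factor of the whole lineage, was searched as ACAAAG or ACAATG on both strands. Its letters were found in 5 of the 8, Mag, Mobp, Cnp, Ermn and Opalin, and in 31.7% of all genes with a window (28.6% of windows). No MYRF match overlapped a SOX10 match. The MYRF letters stood in genes of both onset groups described below, Mag and Cnp in the earlier and Mog and Opalin in the later. A match is a description of letters and was not tested as a binding site. Only the MYRF letters are in capitals, and SOX10 letters stay in lower case; the sequences run 5′ to 3′ along the gene, in the 150 bases before the start for Mag, Cnp and Mog, and in a run of 30 bases after the start for Opalin. Starts are those of RefSeq, the first of several for Mag.
Mag (chr7:30914864-30915013, minus strand): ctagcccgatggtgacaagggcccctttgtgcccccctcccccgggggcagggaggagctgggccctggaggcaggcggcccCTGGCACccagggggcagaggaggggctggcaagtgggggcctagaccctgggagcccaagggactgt
Cnp (chr11:100574789-100574938, plus strand): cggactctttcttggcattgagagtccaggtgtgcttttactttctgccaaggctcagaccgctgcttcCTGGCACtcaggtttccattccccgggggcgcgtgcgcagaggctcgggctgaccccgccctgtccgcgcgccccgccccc
Mog (chr17:37023399-37023548, minus strand): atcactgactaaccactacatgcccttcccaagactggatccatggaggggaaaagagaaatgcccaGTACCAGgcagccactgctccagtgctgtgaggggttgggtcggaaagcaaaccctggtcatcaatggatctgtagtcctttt
Opalin (chr19:41077064-41077093, minus strand): gagacaaagacctgcaGTGCCAGtgagaga
The first base of the match lies 68 bases before the start of Mag, 81 before that of Cnp, 83 before that of Mog and 36 after that of Opalin. For Mog and Opalin the capitals show the reverse complement, since the letters are on the other strand.

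The libraries differed in depth. After filtering, the FGF21 library held 1935 cells with 14085005 UMIs (unique molecules) and a median of 6838 UMIs per cell. The vehicle library held 2337 cells with 10582609 UMIs and a median of 4232 UMIs per cell. The tables shared 12 cell barcodes. Cells were clustered without the 9 genes and without 26 other myelin genes, so none of these entered the clustering. Cluster names rest on marker lists and end in "-like". Oligodendrocyte precursor-like cells numbered 576 in the FGF21 and 375 in the vehicle library. Differentiating oligodendrocyte-like cells numbered 38 in the FGF21 and 33 in the vehicle library. Mature oligodendrocyte-like cells numbered 82 in the FGF21 and 41 in the vehicle library. Mature cells were thus 4.24% of the FGF21 library and 1.75% of the vehicle library.

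Pdgfra, Enpp6 and Bmp4 are in the marker lists that named these clusters, so their levels describe the stages and do not check the names. Levels are given as CPM, the UMIs of a gene scaled to 1000000 UMIs of the class in that library. Pdgfra was at 3103 CPM in precursor-like cells of the FGF21 library and 3165 CPM in those of the vehicle library. In differentiating cells it was at 323 and 215 CPM, and in mature cells at 275 and 207 CPM. Microglia-like cells, which should lack it, had 319.8 and 202.4 CPM. Pdgfra in differentiating and mature cells was thus close to that level, and below it in FGF21 mature cells only. Enpp6 was at 1295 CPM in FGF21 and 1412 CPM in vehicle differentiating cells, against 24.4 and 13.7 CPM in precursor-like cells. In mature cells Enpp6 was still at 147 CPM in the FGF21 and 104 CPM in the vehicle library, above 20.6 and 17.0 CPM in microglia-like cells. Bmp4 was at 633 CPM in FGF21 and 773 CPM in vehicle differentiating cells and at 14.1 and 3.45 CPM in mature cells. Differentiating and mature cells did not overlap in a score of mature less precursor and differentiating markers, genes that the clustering could use. It ran from -4.81 to -1.55 in FGF21 and -5.87 to -2.12 in vehicle differentiating cells, and from 2.40 to 6.50 in FGF21 and 2.43 to 6.02 in vehicle mature cells. No differentiating or mature cell lay between these ranges. Since the clustering could use these genes, the gap does not show that intermediate cells are absent.

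Microglia do not make myelin, so the level in microglia-like cells was taken as the background of the myelin genes. These were the most numerous class, with 885 cells in the FGF21 and 1410 in the vehicle library. The median mitochondrial share, a sign of RNA quality, was 8.6% in mature cells of both libraries, above 5.2% in FGF21 and 5.5% in vehicle differentiating cells.

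Mbp, Cnp, Cldn11 and Mag were already above background in differentiating cells of both libraries. Mbp was at 2588 CPM (2468 to 2712) in FGF21 differentiating cells and 2651 CPM (2493 to 2815) in vehicle ones. In precursor-like cells it was at 221 CPM in the FGF21 and 179 CPM in the vehicle library, close to the microglia-like 222 and 165 CPM. The step from precursor-like to differentiating cells was thus 11.7-fold (10.9 to 12.6) in FGF21 and 14.8-fold (13.2 to 16.6) in vehicle. In mature cells Mbp was at 3529 CPM in the FGF21 and 4367 CPM in the vehicle library, so most of the difference from precursor-like cells was already there in the differentiating stage.

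Cnp, the enzyme of the cytoplasmic channels, was at 310.5 CPM in FGF21 and 199 CPM in vehicle precursor-like cells. It was at 2062 CPM in FGF21 and 1785 CPM in vehicle differentiating cells, and at 3510 CPM in FGF21 and 3352 CPM in vehicle mature cells. It was the only one of the 9 genes above the microglia-like level in precursor-like cells of both libraries. The ratio was 1.21-fold (1.13 to 1.30) in FGF21 and 1.47-fold (1.31 to 1.65) in vehicle. Astrocyte-like cells, outside the lineage, held more Cnp than precursor-like cells, at 369 CPM in FGF21 and 233 CPM in vehicle.

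Cldn11, the tight junction protein, was at 197 CPM in FGF21 and 57.6 CPM in vehicle precursor-like cells, within counting error of the microglia-like 208 and 67.6 CPM. In differentiating cells it was at 1289 CPM in the FGF21 and 1284 CPM in the vehicle library. In mature cells it was at 5879 and 5348 CPM, so the larger part of the difference lay between differentiating and mature cells. The fold over precursor-like cells, 6.56 in FGF21 and 22.3 in vehicle, differed between libraries whose differentiating levels were alike and whose precursor-like levels were not.

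Mag, the adhesion protein facing the axon, was the lowest of the 4 against its background. It was at 561 CPM (506 to 621) in FGF21 and 418 CPM (357 to 486) in vehicle differentiating cells, which was 2.76-fold and 5.28-fold the microglia-like level. In precursor-like cells it was at 160 CPM in FGF21 and 59.6 CPM in vehicle, below the microglia-like 204 and 79.1 CPM. In mature cells it was at 2463 CPM in FGF21 and 2413 CPM in vehicle.

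Mobp, Mal, Ermn and Opalin had no level above background in differentiating cells. Mobp was at 129 CPM (103 to 159) in FGF21 and 65.1 CPM (42.5 to 95.4) in vehicle differentiating cells, against 122 and 60.4 CPM in microglia-like cells. In mature cells it was at 2668 CPM in the FGF21 and 2831 CPM in the vehicle library. Mal was at 116 CPM in FGF21 and 77.6 CPM in vehicle differentiating cells and 127.5 and 69.7 CPM in microglia-like cells, but 7100 and 7174 CPM in mature cells. The steps of Mal from differentiating to mature cells were 61.5-fold (49.2 to 77.9) in FGF21 and 92.5-fold (64.9 to 136) in vehicle.

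Ermn was at 29.6 CPM in FGF21 and 12.5 CPM in vehicle differentiating cells, against 30.6 and 15.5 CPM in microglia-like cells. In mature cells it was at 1856 CPM in the FGF21 and 1971 CPM in the vehicle library. Opalin was at 25.2 CPM in FGF21 and 10.0 CPM in vehicle differentiating cells, from 17 and 4 UMIs, against 20.8 and 5.84 CPM in microglia-like cells. It was at 483 CPM in FGF21 and 438 CPM in vehicle mature cells.

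Mog, the surface protein of the outer rim, was at background in the FGF21 library only. It was at 28.1 CPM in FGF21 differentiating cells, 1.10-fold (0.64 to 1.79) the microglia-like level. In vehicle differentiating cells it was at 30.0 CPM, 4.49-fold (2.14 to 8.74) the microglia-like level, from 12 UMIs of which 6 lay in 1 cell. Without that cell it was at 15.0 CPM. In mature cells Mog was at 956 CPM in the FGF21 and 780 CPM in the vehicle library.

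**Figure D1:**
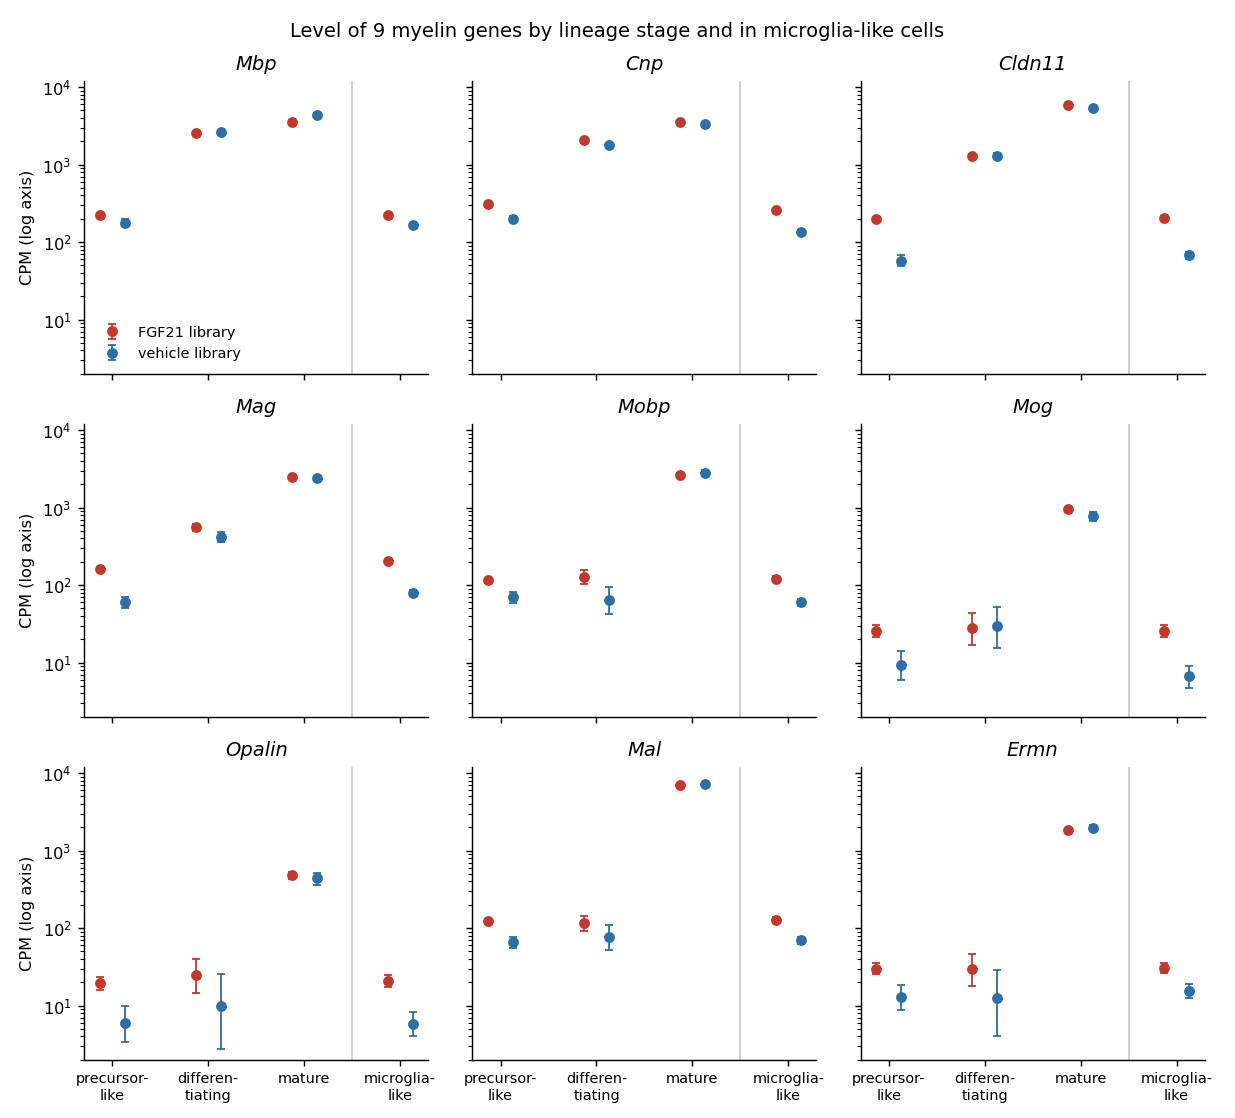
CPM of each gene on a log axis in precursor-like, differentiating, mature and microglia-like cells, with 1 point per library (FGF21 red, vehicle blue) and bars for exact 95% Poisson intervals. Mbp, Cnp, Cldn11 and Mag stand above the microglia-like level in differentiating cells, for example Mbp at 2588 CPM in FGF21 and 2651 CPM in vehicle, while Mobp, Mal, Ermn and Opalin stand at it.

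By the fold criterion, 4 of the 9 genes were at least 2-fold higher in differentiating than in precursor-like cells in the FGF21 library, where 4.15% of 10861 genes with at least 50 UMIs were. In the vehicle library 4 of the 6 genes with enough UMIs were, against 4.80% of 9186. They were Mbp, Cnp, Cldn11 and Mag in each. From differentiating to mature cells 7 of the 9 were at least 2-fold higher in each library, all but Mbp and Cnp, where 8.99% of 5659 genes were in FGF21 and 11.2% of 3124 in vehicle. None of the 9 was at least 2-fold lower in either step. Over all genes 16.0% were lower in FGF21 and 17.6% in vehicle from precursor-like to differentiating cells, and 17.0% and 19.2% from differentiating to mature cells. The median log2 difference from differentiating to mature cells was 4.22 over the 9 genes in FGF21 and 4.64 in vehicle, against -0.30 and -0.26 over all genes.

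The genes were ordered by the share of its own mature level that each gene reached in differentiating cells. This share covers the whole stage, so it ranks the level reached and not which gene rose earliest. Mbp had the highest share, at 73.3% (69.0 to 77.9) in the FGF21 and 60.7% (55.9 to 65.9) in the vehicle library. Without the cell with the most Mbp UMIs it was at 66.2% in FGF21 and 56.9% in vehicle. As a mean over cells it was at 64.2% in FGF21 and 51.8% in vehicle. Of these values only the vehicle 56.9% lay within the interval of its library, so the intervals do not cover the spread between cells. Mbp stayed the highest in both libraries under each. Cnp followed at 58.8% (55.0 to 62.7) in FGF21 and 53.2% (48.3 to 58.7) in vehicle. The intervals of Mbp and Cnp did not overlap in FGF21 but did in vehicle, so their order in vehicle was not resolved at this depth. In precursor-like cells of both libraries Cnp, and not Mbp, was above the microglia-like level. Cnp was above that level in astrocyte-like cells too, so this excess was not particular to precursor-like cells.

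Cldn11 and Mag came next and were not told apart in FGF21. Cldn11 was at 21.9% (20.4 to 23.6) in the FGF21 and 24.0% (21.7 to 26.5) in the vehicle library. Mag was at 22.8% (20.4 to 25.5) in FGF21 and 17.3% (14.5 to 20.5) in vehicle, below Cldn11 there beyond counting error. With the microglia-like level taken off, Mag was at 15.8% in FGF21 and 14.5% in vehicle. Cldn11 was then at 19.1% and 23.0%, which set Cldn11 ahead of Mag in both. In FGF21 Cldn11 was at 20.3% and Mag at 19.7% without the cell with the most UMIs of the gene. As a mean over cells they were at 20.1% and 18.3% there. In vehicle Cldn11 was at 20.5% and Mag at 14.9% without that cell, and at 20.4% and 13.8% as a mean over cells. These values have no intervals.

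The other 5 genes stood at most at 5.21% of their mature level. Opalin was at 5.21% (3.00 to 8.45) in FGF21 and 2.28% in vehicle, Mobp at 4.83% (3.85 to 5.99) and 2.30%, and Mog at 2.94% and 3.85%. Mal was at 1.63% in FGF21 and 1.08% in vehicle, and Ermn at 1.60% and 0.635%. Microglia-like cells stood at 4.31% for Opalin, 4.56% for Mobp, 1.80% for Mal and 1.65% for Ermn in the FGF21 library. Apart from Mog in the vehicle library these shares did not stand above the background, and no order is read among the 5. That Mog share rested on 12 UMIs and was 2.07% without the cell with the most of them, against 0.858% in microglia-like cells. Where stages were set by a gate on UMIs of Pdgfra, Enpp6 and Bmp4 in place of clusters, the 4 highest were Mbp, Cnp, Opalin and Mobp in FGF21, with 3 cells left as mature, and Mbp, Cnp, Cldn11 and Mag in vehicle, with 13.

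**Figure D2:**
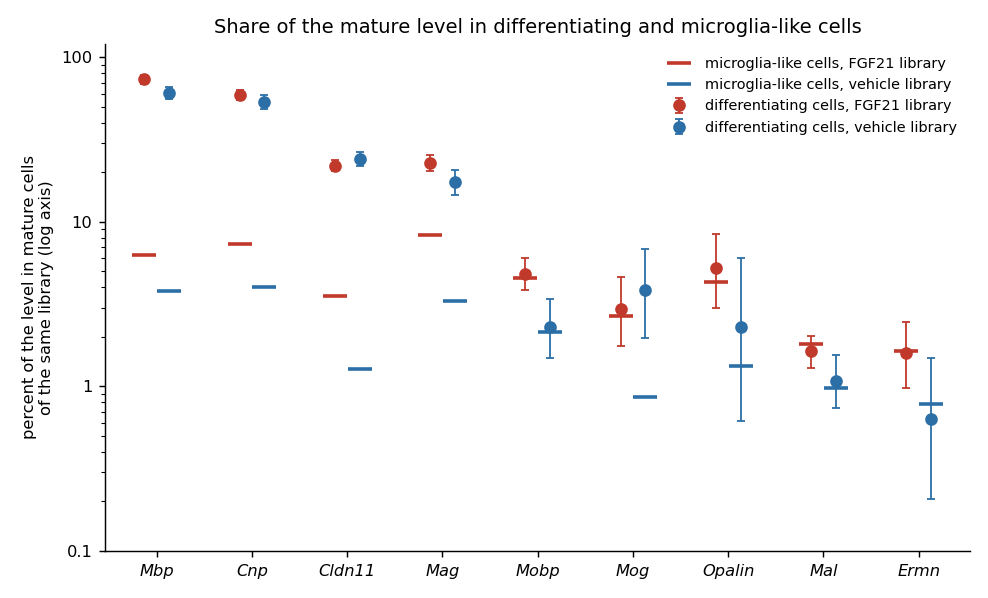
Percent of its mature level, on a log axis, that each gene reached in differentiating cells (points, with exact 95% intervals) and in microglia-like cells (dashes) of the FGF21 (red) and vehicle (blue) library. Mbp at 73.3% and 60.7% and Cnp at 58.8% and 53.2% stand far above the dashes, and Mobp, Opalin, Mal and Ermn lie on them.

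Shares of cells with a UMI, given here for Mbp, Mag, Mobp and Mal, gave much the same division once depth was made equal. Mobp in the FGF21 library departed from it somewhat. All 38 FGF21 differentiating cells had a UMI of Mbp, at a median depth of 15413 UMIs per cell. So had 72.0% of FGF21 microglia-like cells, at a median of 6030 UMIs. With every cell thinned to 2000 UMIs, Mbp was found in 89.5% of 38 FGF21 and 81.2% of 32 vehicle differentiating cells. In thinned microglia-like cells it was found in 36.9% of 865 FGF21 and 25.2% of 1347 vehicle cells. The shallower cells left out were 20 FGF21 and 63 vehicle microglia-like cells, and 1 vehicle differentiating cell.

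Mag was found in 63.2% of thinned FGF21 and 43.8% of thinned vehicle differentiating cells, against 31.9% and 13.8% of microglia-like cells. Mobp was found in 28.9% and 12.5% of them, against 20.9% and 11.4% of microglia-like cells, and Mal in 13.2% and 9.38%, against 22.4% and 13.6%. For Mal a UMI was thus no more frequent in differentiating cells than in a cell type that should lack it. For Mobp the shares were close in vehicle, and that of differentiating cells was somewhat higher in FGF21. These shares are given without intervals. In thinned mature cells Mbp, Mag, Mobp, Cnp, Mal and Cldn11 were found in every one of 80 FGF21 and 38 vehicle cells.

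Within the differentiating cells the same 4 genes were higher where the summed precursor markers were lower. The cells of each library were ranked by the summed level of 8 precursor markers and cut into 3 bins, high, middle and low, of 24, 24 and 23 cells over both libraries. This ranking used none of the 9 genes and was added after the stage values were seen. Mbp was at 848 CPM (748 to 957) in the high, 1821 CPM (1689 to 1962) in the middle and 4821 CPM (4603 to 5046) in the low bin. In the low bin Mbp was at 4974 CPM in FGF21 and 4586 CPM in vehicle, at or above its mature level of 3529 and 4367 CPM.

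Cnp was at 1200.2, 1782 and 2747 CPM over these bins and Cldn11 at 540.2, 1165 and 2011 CPM. Mag was at 165 CPM (123 to 217) in the high, 366 CPM (308 to 432) in the middle and 926 CPM (832 to 1028) in the low bin. In the high bin Mag was at 170 CPM (118 to 236) in FGF21, not above the microglia-like 204 CPM, and at 155 CPM (88.6 to 252) in vehicle, above the microglia-like 79.1 CPM, from 16 UMIs in 4 of 11 cells. Mbp, Cnp and Cldn11 were above the microglia-like level in the high bin of both libraries. Cnp was ahead of Mbp in that bin, at 1360 against 952 CPM in FGF21 and 882 against 640 CPM in vehicle. The intervals of Cnp and Mbp there overlapped in vehicle only. Enpp6 was at 598, 1340 and 1933 CPM over the bins and Gpr17, a receptor of the early differentiating stage, at 4694, 3899 and 2692 CPM.

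Mobp, Mal, Ermn and Opalin showed no such course. Mobp was at 139, 73.3 and 109.6 CPM over the bins, Mal at 107, 94.2 and 104 CPM, and Ermn at 35.6, 18.3 and 18.3 CPM. Opalin was at 16.2, 20.9 and 20.9 CPM. Mog was at 22.6, 13.1 and 49.6 CPM, with all 12 vehicle UMIs in the low bin. Median depth was 12854, 16272 and 12423 UMIs over the bins with both libraries joined. Within a library the lower bins were deeper, with medians of 13982, 18883 and 20500 UMIs in FGF21 and 10204, 11832 and 12392 UMIs in vehicle.

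**Figure D3:**
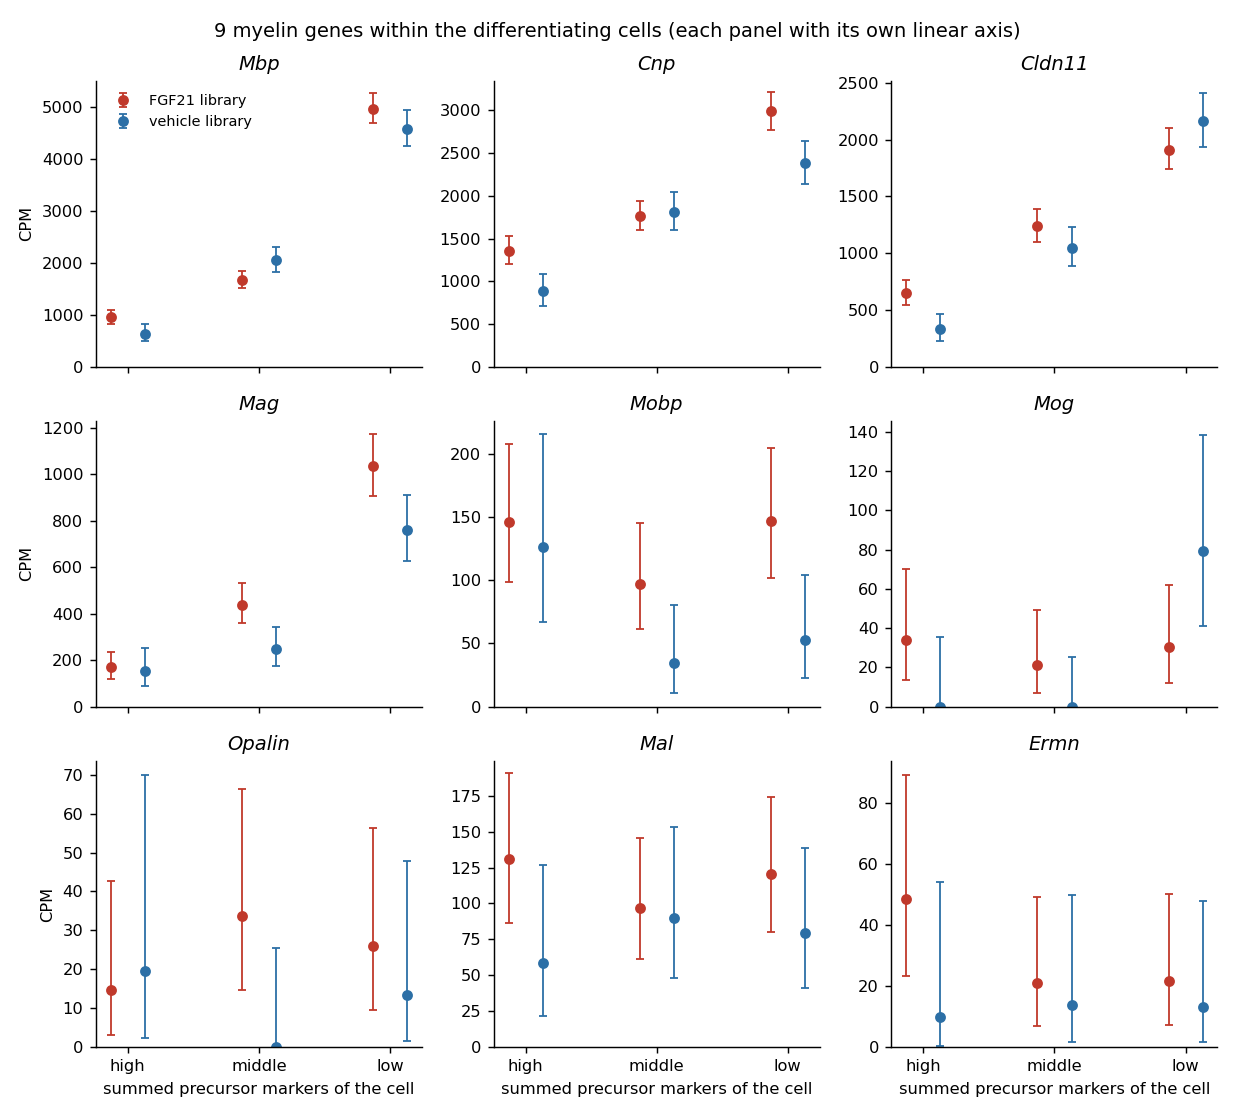
CPM of each gene, on a linear axis of its own, in differentiating cells with high, middle and low summed precursor markers, with 1 point per library (FGF21 red, vehicle blue) and exact 95% Poisson intervals from 11 to 13 cells a point. Mbp, Cnp, Cldn11 and Mag are higher in each next bin in both libraries, and the other panels have overlapping intervals or few UMIs.

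Mature cells varied in level but rarely lacked a gene. Mal ran from 901 over a median of 6267 to 15005 CPM per cell in 82 FGF21 mature cells and from 836 over 6507 to 14228 CPM in 41 vehicle ones. Mbp ran from 693 over 3241 to 6891 CPM in FGF21 and from 916 over 4383 to 7653 CPM in vehicle. The ranges of the libraries overlapped almost entirely for both. Opalin had a UMI in 87.8% of FGF21 and 70.7% of vehicle mature cells, and the other 8 genes in 92.7% or more of the cells of each library.

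Mature cells that still held Enpp6 had less Mal. Those with at least 2 Enpp6 UMIs numbered 23 in the FGF21 and 7 in the vehicle library, and those with none 45 and 29. This split was added after the stage values were seen. Mal was at 5781 CPM with and 7732 CPM without Enpp6 in FGF21, a ratio of 0.75 (0.70 to 0.80). In vehicle it was at 5078 CPM with and 7919 CPM without, a ratio of 0.64 (0.57 to 0.72). Opalin had a ratio of 0.55 (0.43 to 0.71) in FGF21 and 0.76 (0.46 to 1.22) in vehicle. Mbp had a ratio of 1.13 (1.04 to 1.23) and 1.11 (0.97 to 1.27). Cells with Enpp6 were deeper, with medians of 11340 against 8491 UMIs in FGF21 and 8441 against 7426 UMIs in vehicle, and the part of depth in these ratios was not tested.

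Other genes of the myelin sheath fell into the same stages, with another course beside them. Of 26 such genes, 12 of 23 with enough UMIs were at least 2-fold higher and 1 lower in FGF21 differentiating than precursor-like cells, and 10 of 21 higher in vehicle. From differentiating to mature cells 17 of 25 were higher and 5 lower in FGF21, and 15 of 23 higher and 4 lower in vehicle.

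Sirt2, a deacetylase found in myelin, was highest in the differentiating stage. It was at 422, 2880 and 505 CPM over the stages in FGF21 and 419, 2949 and 438.5 CPM in vehicle. None of the 9 genes had this course. Gpm6b, a membrane glycoprotein, was the lowest of the 3 stages in differentiating cells, at 624 CPM in FGF21 and 583 CPM in vehicle, and Gjc3, a connexin, was at 1546 and 1672 CPM there and 905 and 929 CPM in mature cells.

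The genes most like the mean profile of the 9 were those of mature cells. Over 17 profiles of classes with at least 20 cells in a library, 7 of them of FGF21, Tmem151a had a Pearson r of 0.96 on log2(CPM + 10), Itgb4 0.96 and Cntn2, an adhesion molecule next to the node, 0.95. Gpr62, Anln, Slc24a2, Hapln2 and Nkain1 followed at 0.94 to 0.95. Among the 9 themselves r with this mean ran from 0.87 for Mbp to 0.97 for Mog. The profiles share libraries and background RNA, and these values are a description.

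Outside the lineage all 9 genes were found at a low level in microglia-like, astrocyte-like and mural-like cells of both libraries. In erythroid-like cells Opalin had 4 UMIs in the FGF21 library and none in the vehicle library. Over these 4 classes Mbp was at 0.22 to 0.43 of its level over all cells in the FGF21 library and 0.34 to 0.44 in the vehicle library. Mal was at 0.25 to 0.47 in FGF21 and 0.20 to 0.33 in vehicle. Other genes reached higher. The highest values were 2.07 for Opalin in FGF21, from the 4 UMIs in erythroid-like cells, and 0.78 for Cnp in vehicle. Mag reached 0.95 in FGF21.

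The 9 genes did not stand in 1 proportion to mature cells, though. Microglia-like cells had 8.27% of the mature level for Mag, 7.31% for Cnp and 6.29% for Mbp in the FGF21 library, but 1.80% for Mal and 1.65% for Ermn. In the vehicle library they had 4.02% for Cnp, 3.79% for Mbp and 3.28% for Mag, against 0.972% for Mal and 0.784% for Ermn. Of the 9 genes' UMIs, Mal made up 10.5% in FGF21 and 11.5% in vehicle microglia-like cells, against 25.0% in mature cells of each library. Mag made up 16.8% and 13.1% in microglia-like cells, against 8.66% and 8.42% in mature cells. The proportions of the 9 genes thus differed between microglia-like and mature cells, and the source of the UMIs in microglia-like cells was not tested.

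Against microglia-like cells, 8 of the 9 genes had intervals that held a ratio of 1 in astrocyte-like cells of each library. The exception was Cnp, 1.44-fold (1.29 to 1.60) higher in FGF21 and 1.73-fold (1.39 to 2.15) higher in vehicle astrocyte-like cells. In precursor-like cells 7 of the 9 held a ratio of 1 in each library, Cnp being higher and Mag lower. In mural-like cells Mbp and Mag were lower in both libraries, at 115 and 128 CPM in FGF21 and 128 and 53.6 CPM in vehicle.

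Mal stood apart in endothelial-like cells, a value singled out after it was seen. It was at 331 CPM (193 to 531) in 16 FGF21 cells and 635.5 CPM (450 to 872) in 32 vehicle cells, 2.60-fold (1.51 to 4.19) and 9.12-fold (6.36 to 12.7) the microglia-like level. It was found in 9 of the FGF21 and 17 of the vehicle cells, with at most 4 and 6 UMIs in a cell. Cnp stood at the microglia-like level in these cells, at 292 CPM in FGF21 and 134 CPM in vehicle. Mag was at 351 CPM in FGF21, where 9 of its 18 UMIs lay in 1 cell, and at 33.4 CPM in vehicle.

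The libraries were close in mature cells. None of the 9 genes was 2-fold apart there, where 3.38% of 3997 genes were higher and 1.75% lower in FGF21 by that fold. Mbp was at 3529 CPM in FGF21 and 4367 CPM in vehicle mature cells, a ratio of 0.81 (0.76 to 0.86). Mog was at 956 and 780 CPM, a ratio of 1.23 (1.05 to 1.43), and Cldn11 at 5879 and 5348 CPM, a ratio of 1.10 (1.04 to 1.17). Under the gate on UMIs, which left 3 FGF21 and 13 vehicle mature cells, the ratio of Mog was 0.87. The intervals of the other 6 held 1, with ratios from 0.94 to 1.10. Summed, the 9 genes were at 28445 CPM in FGF21 and 28676 CPM in vehicle mature cells, a ratio of 0.99 (0.97 to 1.02).

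In differentiating cells none of the 6 genes with at least 50 UMIs was 2-fold apart, where 1.99% of 4825 genes were higher and 1.20% lower. Mbp had a ratio of 0.98 (0.90 to 1.05), Cldn11 of 1.00 (0.90 to 1.12) and Cnp of 1.16 (1.05 to 1.27). Mag had a ratio of 1.34 (1.12 to 1.62). Mobp, at background in both, had 1.98 (1.27 to 3.20), just under the limit of 2. It passed that limit under 6 of the alternatives tried.

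In precursor-like cells 5 of the 9 genes were at least 2-fold higher in the FGF21 library, where 1.21% of 11408 genes were. None was 2-fold lower, where 0.920% of genes were. Cldn11 was at 197 CPM in FGF21 and 57.6 CPM in vehicle, a ratio of 3.41 (2.86 to 4.09). Opalin had a ratio of 3.22 (1.86 to 5.97), Mog of 2.80 (1.79 to 4.57), Mag of 2.68 (2.25 to 3.21) and Ermn of 2.33 (1.58 to 3.53). Mbp had a ratio of 1.23 (1.10 to 1.38). With a background share taken off each library, 1 of the 9 genes was 2-fold apart in precursor-like cells, and under the gate on UMIs 0 were. Fewer of the 9 could be compared once that share was taken off, so the others were not shown to be alike. With that share taken off, Mbp and Mobp turned direction there, to ratios of 0.62 and 0.89 in place of 1.23 and 1.67.

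Microglia-like cells had like ratios, against the same pair of libraries. There 5 of the 9 genes were at least 2-fold higher in FGF21, where 4.16% of 11360 genes were, and none was 2-fold lower, where 1.25% were. Cldn11 was at 208 CPM in FGF21 and 67.6 CPM in vehicle, a ratio of 3.07 (2.74 to 3.45). Mog had a ratio of 3.81 (2.66 to 5.59), Opalin of 3.57 (2.41 to 5.40), Mag of 2.57 (2.31 to 2.88) and Mobp of 2.01 (1.76 to 2.29). Mbp again had the lowest ratio, 1.34 (1.23 to 1.46). Over all cells the ratios were 2.23 (2.14 to 2.33) for Cldn11 and 1.38 (1.32 to 1.43) for Mbp. In both classes the libraries' cells lay in different clusters: 525 of the 576 FGF21 precursor-like cells were in one and 345 of the 375 vehicle ones in another. With the main cluster of each library alone, Cldn11 had ratios of 3.54 in precursor-like and 3.07 in microglia-like cells. With the background share taken off, 2 of the 9 genes were 2-fold apart in microglia-like cells, and the ratio of Mbp turned direction, to 0.78. Here too fewer of the 9 could be compared after the subtraction.

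Summed marker lists of the lineage also differed between the libraries in these classes, and not all in 1 direction. The 12 markers that named mature cells, none of them among the 9, were all found in precursor-like and microglia-like cells of both libraries. Summed, they were at 834 CPM in FGF21 and 588 CPM in vehicle precursor-like cells, a ratio of 1.42 (1.34 to 1.51). In microglia-like cells they were at 962 and 862 CPM, a ratio of 1.12 (1.07 to 1.16). The 8 precursor markers, all found, were at 1153 CPM in FGF21 and 664 CPM in vehicle microglia-like cells, a ratio of 1.74 (1.67 to 1.81). The 12 markers of differentiating cells, of which Casr was at 0 in both classes of the vehicle library, were at 1675 CPM in FGF21 and 2246 CPM in vehicle precursor-like cells, a ratio of 0.75 (0.72 to 0.77). In microglia-like cells their ratio was 1.02 (0.97 to 1.07). The 10 microglia markers, all found, went the other way in precursor-like cells, at 6463 CPM in FGF21 and 7845 CPM in vehicle, a ratio of 0.82 (0.81 to 0.84), as did the share of microglia-like cells, 45.7% of the FGF21 and 60.3% of the vehicle library. The part of these in the ratios of the 9 genes was not tested.

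Astrocyte-like cells had 2 of 6 measured genes at least 2-fold higher in FGF21, Mag and Cldn11, where 3.59% of 6128 genes were, and none lower, where 1.37% were. Mural-like cells had 4 of 5, all but Mbp, where 2.54% of 3031 genes were, and none lower, where 4.95% were. With the background share taken off, 1 was apart in astrocyte-like and 0 in mural-like cells, among those that could still be compared. In erythroid-like cells none of the 9 had 50 UMIs, and of 91 genes that did, 15.4% were higher and 7.69% lower. Of the other myelin genes, none of 25 was 2-fold apart in mature cells and 10 of 23 were higher in FGF21 in microglia-like cells. Cntn2, at 62.2 CPM in FGF21 and 25.0 CPM in vehicle differentiating cells, had a ratio of 2.49 (1.23 to 5.56), against 2.53 (1.99 to 3.25) in microglia-like cells. Aspa, an enzyme of acetate supply for myelin lipid, was at 13.0 and 4.84 CPM in precursor-like cells, a ratio of 2.68 (1.44 to 5.45), against 2.49 (1.58 to 4.02) in microglia-like cells.

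**Figure D4:**
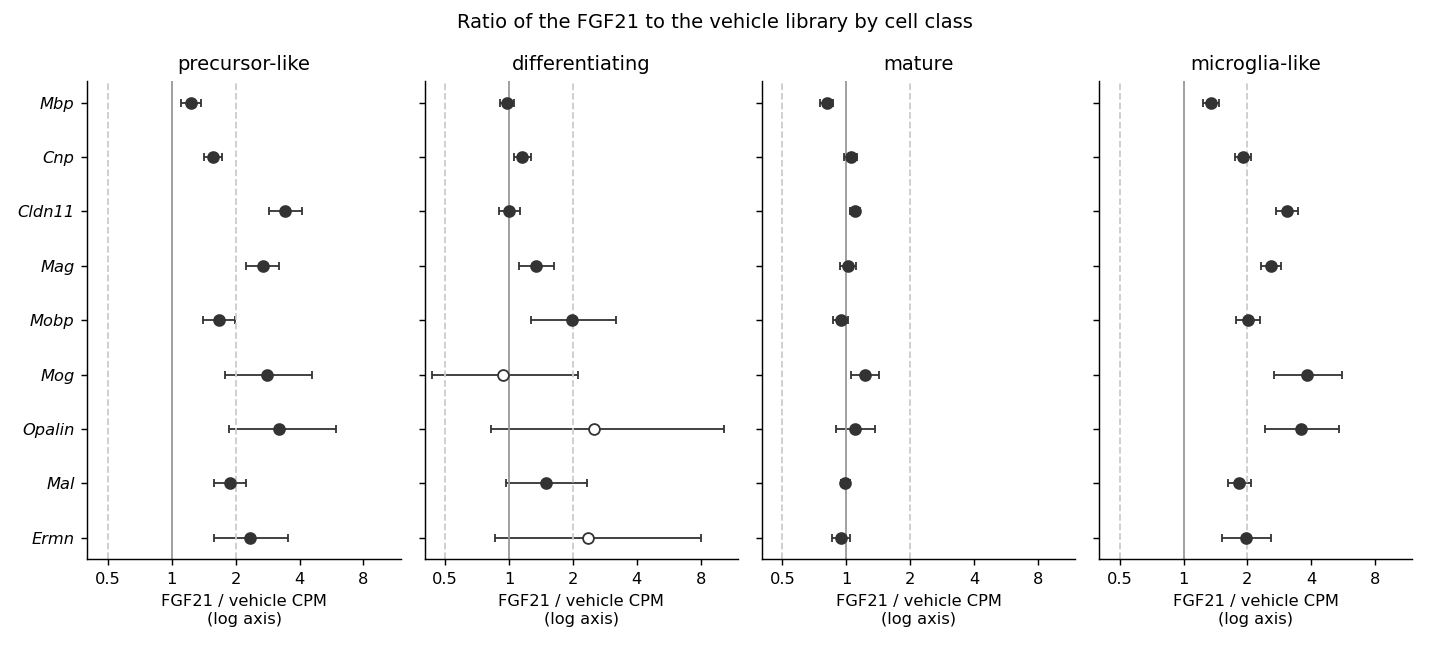
Ratio of the FGF21 to the vehicle CPM of each gene, on a log axis, in precursor-like, differentiating, mature and microglia-like cells, with exact 95% intervals. Open points have under 50 UMIs over both libraries, the solid line marks a ratio of 1 and dashed lines 0.5 and 2. Mature cells lie near 1, for example Mal at 0.99, and the ratios of precursor-like and microglia-like cells resemble each other, for example Cldn11 at 3.41 and 3.07.

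Of all UMIs of the 9 genes, mature cells held 52.4% in the FGF21 and 49.1% in the vehicle library, although they were 4.24% and 1.75% of the cells. Differentiating cells held 10.9% and 14.9%. Microglia-like cells held 15.9% and 20.8%, as 45.7% and 60.3% of the cells.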

How the data were processed

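Polyadenylated RNA of sorted single cells was sequenced on the BD Rhapsody system. Sections were held in actinomycin D, which blocks transcription, before the tissue was dissected and sorted for tdTomato and Hoechst viability, per the labels' protocols. Each deposited value is a count of molecules (UMIs) of a gene in a cell, which the authors made with BD WTA Rhapsody Analysis Pipeline version 1.9.1, per the file headers. The genome was GRCm38, per the submitters' processing notes. For annotation, strand and cell calling the setting is not given in the sources used here. The library names carry different lanes, so lane and treatment cannot be told apart.

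The FGF21 library held 14585503 UMIs in 2455 barcodes and the vehicle library 11130580 UMIs in 2925 barcodes. A cell needed 500 UMIs, 300 genes and no more than 25% mitochondrial UMIs. Scrublet, run per library, called 16 FGF21 and 17 vehicle doublets (0.767% of cells), which were removed. Cells of both libraries were clustered together in scanpy 1.11.5 without integration (2000 variable genes, 30 components, 15 neighbours, Leiden resolution 1.0), leaving out the 9 genes and 26 other myelin genes. Of 16 clusters, each was named where its best of 15 marker lists led the next by a z-score of 0.5 with at least 3 markers in 10% of its cells. A cluster of 39 shallow cells with none of its markers among its leading genes stayed unnamed. The members, lists and naming rule were chosen with earlier results of these data known.

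UMIs were summed per class and library. Levels had exact Poisson, shares exact binomial (Clopper-Pearson) and ratios exact conditional-binomial 95% intervals, which cover counting error only. The ratio step was tested on simulated data. Genes were called apart at 2-fold with at least 50 UMIs over both libraries. All 9 genes are named. Of the other myelin genes, the 4 with the most UMIs in lineage cells and those 2-fold apart between libraries in a stage are named, except 1 that is not reported here, and the rest are only counted. The 8 genes with the most similar profile are named. Gpr17 was added as a stage marker and endothelial-like Mal was picked out after the values were seen. Alternatives used TMM factors from edgeR 4.0.16 and a median of ratios as scaling, other filters, resolutions, a marker gate and background subtraction. The microglia-like level subtracted, the 3 bins, both Enpp6 splits and the use of 1 cluster per library were chosen after seeing the data.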

Additional observations from a re-analysis of the deposited data

How the results depend on the processing

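No FGF21 over vehicle ratio past 2-fold was seen to turn its direction under an alternative in which it could still be formed. Of the ratios under 2-fold, 4 with an interval that left out 1 did. With the background share subtracted, Mbp went to 0.62 and Mobp to 0.89 in precursor-like cells and Mbp to 0.78 in microglia-like cells, and under the gate below Mog went to 0.87 in mature cells. Another 9 ratios with an interval that held 1 passed to the other side of 1 under some alternative. Background subtraction formed fewer ratios, 13 counted as moved and 12 as the same, where most alternatives formed 44. A turn among the ratios it did not form could not be seen. The causes were not tested. Mbp, Cnp, Cldn11 and Mag were the 4 genes with the highest share of their mature level in differentiating cells under 12 of 13 alternatives in the FGF21 and 13 of 13 in the vehicle library. The exception was a gate on UMIs of Pdgfra, Enpp6 and Bmp4 in place of clusters. It took 39 FGF21 and 9 vehicle precursor-like and 25 and 8 mature cells into the differentiating stage, and left 3 FGF21 and 13 vehicle mature cells. Under it 8 (FGF21) and 7 (vehicle) of the 9 genes were at least 2-fold higher in differentiating than in precursor-like cells, where the clusters gave 4 in each, and 0 were 2-fold apart between libraries in precursor-like cells. Leiden resolutions of 0.5 and 2.0 left the stage cells unchanged, as did keeping the myelin genes in clustering in the FGF21 library. Those alternatives could not change the 4 highest genes. Leaving mitochondrial genes out of totals scales all genes of a class alike, so it could not change them either. Without the cell with the most UMIs of the gene, 4 shares of the mature level were counted as moved, and with a mean over cells 6. These were shares of Mbp, Mag and Cldn11, each lower than before.

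In differentiating cells 1 gene was 2-fold apart, in place of 0, with at most 10% mitochondrial UMIs, with at least 1000 UMIs, with doublets kept, with myelin genes kept in clustering, without the top cell, and with TMM factors; it was 2 with no minimum of UMIs. The background share of each library was 34.3% in FGF21 and 26.9% in vehicle. With it subtracted, 1 gene was apart in precursor-like, 2 in microglia-like, 1 in astrocyte-like and 0 in mural-like cells. These counts cover only the genes that could still be compared. The median microglia-like over library level was then 0.133 in FGF21 and 0.0811 in vehicle, against 0.430 and 0.329. With no minimum, 5 were apart in astrocyte-like and 7 in mural-like cells. Over all genes, no minimum gave 3458 higher and 3341 lower in precursor-like, 2987 and 2241 in differentiating, 3874 and 2356 in mature, and 3501 and 3819 in microglia-like cells.

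No paired analysis was possible because each treatment had 1 library. Depth limits Mog, Ermn and Opalin in differentiating cells, with 4 to 20 UMIs a library: a level at background there does not show that the gene is off.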
